A study of Mus musculus with 21 samples.

Results

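Integrins and adhesion molecules were described here through 9 genes, taken by symbol from the deposited gene table after their Ensembl identifiers had been matched to symbols. They are the leukocyte integrin subunits Itgam, Itgax, Itgal and Itgb2, the subunits Itga4, Itgav and Itgb1, the ligand Icam1 and the hyaluronan receptor Cd44. All 9 were found among the 23250 genes of the table, and all 9 passed the filter on low counts that left 13468 genes for testing.

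An integrin is a pair of one alpha and one beta subunit that spans the membrane and links matrix or other cells to the cytoskeleton. Itgb2 encodes CD18, which pairs with the product of Itgal (CD11a) to form LFA-1, with that of Itgam (CD11b) to form Mac-1 or complement receptor 3, and with that of Itgax (CD11c) to form complement receptor 4. Icam1 is a ligand of LFA-1 and Mac-1. Itga4 pairs with Itgb1 to form VLA-4, a receptor for Vcam1 and fibronectin, while Itgav pairs with several beta subunits and binds ligands that carry the RGD sequence. Cd44 binds hyaluronan and holds cells to the matrix without being an integrin.

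The cells were macrophages grown from C57BL/6J mouse bone marrow for 7 days with the supernatant of a line that makes GM-CSF. The series text calls them deficient in the mannose receptor (Mrc1), in the untreated group as in every other. The design asked what a soluble mannose receptor does to such cells. One group was untreated (0 h), and the others received FcMR, in which the Fc part of human IgG1 is joined to the extracellular part of the mannose receptor, or an isotype control, for 4, 12 or 24 h. Each of the 7 groups holds 3 libraries, 21 in all. No label says that the libraries of a group came from separate mice or cultures, so the p-values measure only the spread between these libraries, which may be technical. No untreated library was taken at 4, 12 or 24 h, so the effects of culture time and of the control protein cannot be told apart.

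RefSeq promoter windows (GRCm38.p6) were matched for 7 of the 9 members, and not for Itgal and Itgb2. The windows of 3 genes are shown because their genes took different courses below: Icam1 was higher with FcMR at every time, Itgam was lower from 12 h on, and Itgax, which starts 11.06 kb beyond the end of Itgam on the same strand, moved little. Each line gives the 250 bases before the RefSeq start, 5′ to 3′, on the plus strand. The windows are chr9:21015690-21015939 for Icam1, chr7:128062390-128062639 for Itgam and chr7:128129300-128129549 for Itgax. Capitals mark an NF-κB-type sequence (GGAAATTCC) and a GAS-type STAT sequence (TTCNNNGAA) in Icam1, PU.1-type cores (GAGGAA) in Itgam and an AP-1 sequence (TGANTCA) in Itgax, each searched on both strands.
Icam1: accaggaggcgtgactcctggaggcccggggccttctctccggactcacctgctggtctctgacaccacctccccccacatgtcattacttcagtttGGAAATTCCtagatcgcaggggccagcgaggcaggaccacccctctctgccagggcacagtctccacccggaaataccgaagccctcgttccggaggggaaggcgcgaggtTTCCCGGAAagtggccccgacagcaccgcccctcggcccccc
Itgam: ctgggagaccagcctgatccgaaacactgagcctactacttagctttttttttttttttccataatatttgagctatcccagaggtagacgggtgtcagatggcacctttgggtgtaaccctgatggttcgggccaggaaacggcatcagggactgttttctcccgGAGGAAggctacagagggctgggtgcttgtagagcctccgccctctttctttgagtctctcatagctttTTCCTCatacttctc
Itgax: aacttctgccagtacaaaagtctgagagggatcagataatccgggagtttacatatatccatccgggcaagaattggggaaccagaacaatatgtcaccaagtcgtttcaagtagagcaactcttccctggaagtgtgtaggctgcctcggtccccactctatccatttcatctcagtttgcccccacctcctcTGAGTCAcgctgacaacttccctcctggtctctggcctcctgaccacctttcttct

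The 9-letter NF-κB sequence was chosen after the Icam1 window had been read. It lay 153 to 145 bases before the start and occurs in 0.286% of the 32851 windows of this length, while the general NF-κB consensus, in 16.8% of all windows, matched none of the 7 members. The GAS match of Icam1 lay 42 to 34 bases before the start, and 7.02% of all windows hold one. Itgam had PU.1 cores at 84 to 79 and at 15 to 10 bases before the start, a core that 23.3% of windows hold and that also occurred in Itgav, Cd44 and Itgb1. The AP-1 match of Itgax lay 56 to 50 bases before the start, and 6.75% of windows hold one. No member matched the C/EBP letters TTGCNNAA (9.56% of windows) or the interferon response element, ISRE (2.98%). The matches overlap no other match shown, and they describe letters in a window.

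The smallest library held 5532225 counts and the largest 66729533 (12.1 times as many), and every member had enough counts in each library to lie far above the level that 3 counts can show (at most 0.542 CPM). CPM is the count scaled to library totals after TMM normalization, except for the cell-type markers, where no TMM factor was used. Mrc1 was at 0 to 11 counts in the 21 libraries. Numbers in the titles run through the groups in order, except in 2 libraries. These are isotype 4 h replicate 3 and the first FcMR library of 12 h, each carrying the number due to the other. The labels do not tell whether they were exchanged. The 10 neutrophil markers given below summed to 959 to 1365 CPM in the isotype 4 h libraries and 305 to 536 in the FcMR 12 h libraries. Whether the 2 libraries were exchanged was not tested. Without both, the 12 h calls of Itgav (0.36, edgeR adjusted p = 0.0631) and Itgb1 (0.28, edgeR adjusted p = 0.114) ended, and the other member calls at 4 and 12 h held. Both also differ from their groups in GC tilt, which compares GC-rich with GC-poor genes (mean log2 level of the top 10% minus the bottom 10%, against all libraries). The tilt of FcMR 12 h replicate 1 was -0.73 beside 0.70 and 0.80 in its group, and isotype 4 h replicate 3 had 0.64 beside -0.83 and -1.59. FcMR 24 h replicate 2 stood at -1.26 beside -0.35 and 0.41. Itgal and Itgb2 are the members richest in GC (54.6% and 54.0%), and Itgb1 and Itga4 the poorest (44.2% and 45.2%).

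Against the isotype control, 5 members were called higher with FcMR at 4 h (Itgal, Itga4, Itgav, Icam1 and Cd44) and none lower, while 17.7% of all genes tested were called, 8.62% higher and 9.13% lower. At 12 h 5 were higher (Itgal, Itga4, Itgav, Itgb1 and Icam1) and 1 was lower (Itgam), where calls took in 16.1% of all genes (8.61% higher, 7.49% lower). At 24 h 3 were higher (Itgal, Itga4 and Icam1) and 3 lower (Itgam, Itgax and Itgb2), where 20.9% of all genes were called, 11.4% higher and 9.44% lower. A call is an edgeR quasi-likelihood adjusted p under 0.05 over all genes tested. The median log2 differences of the 9 members at 4, 12 and 24 h were 0.54, 0.42 and -0.10, and those of all genes were -0.07, -0.02 and 0.01. Itgal, Itga4 and Icam1 were called higher at all 3 times, as were 3.66% of all genes. The 3 libraries of each arm did not overlap for 7 members at 4 h, 8 at 12 h and 7 at 24 h, and the shares of all genes were 29.7%, 35.4% and 34.4%. In bulk RNA, a change in how many cells carry a transcript and a change in RNA per cell cannot be told apart.

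**Figure D1:**
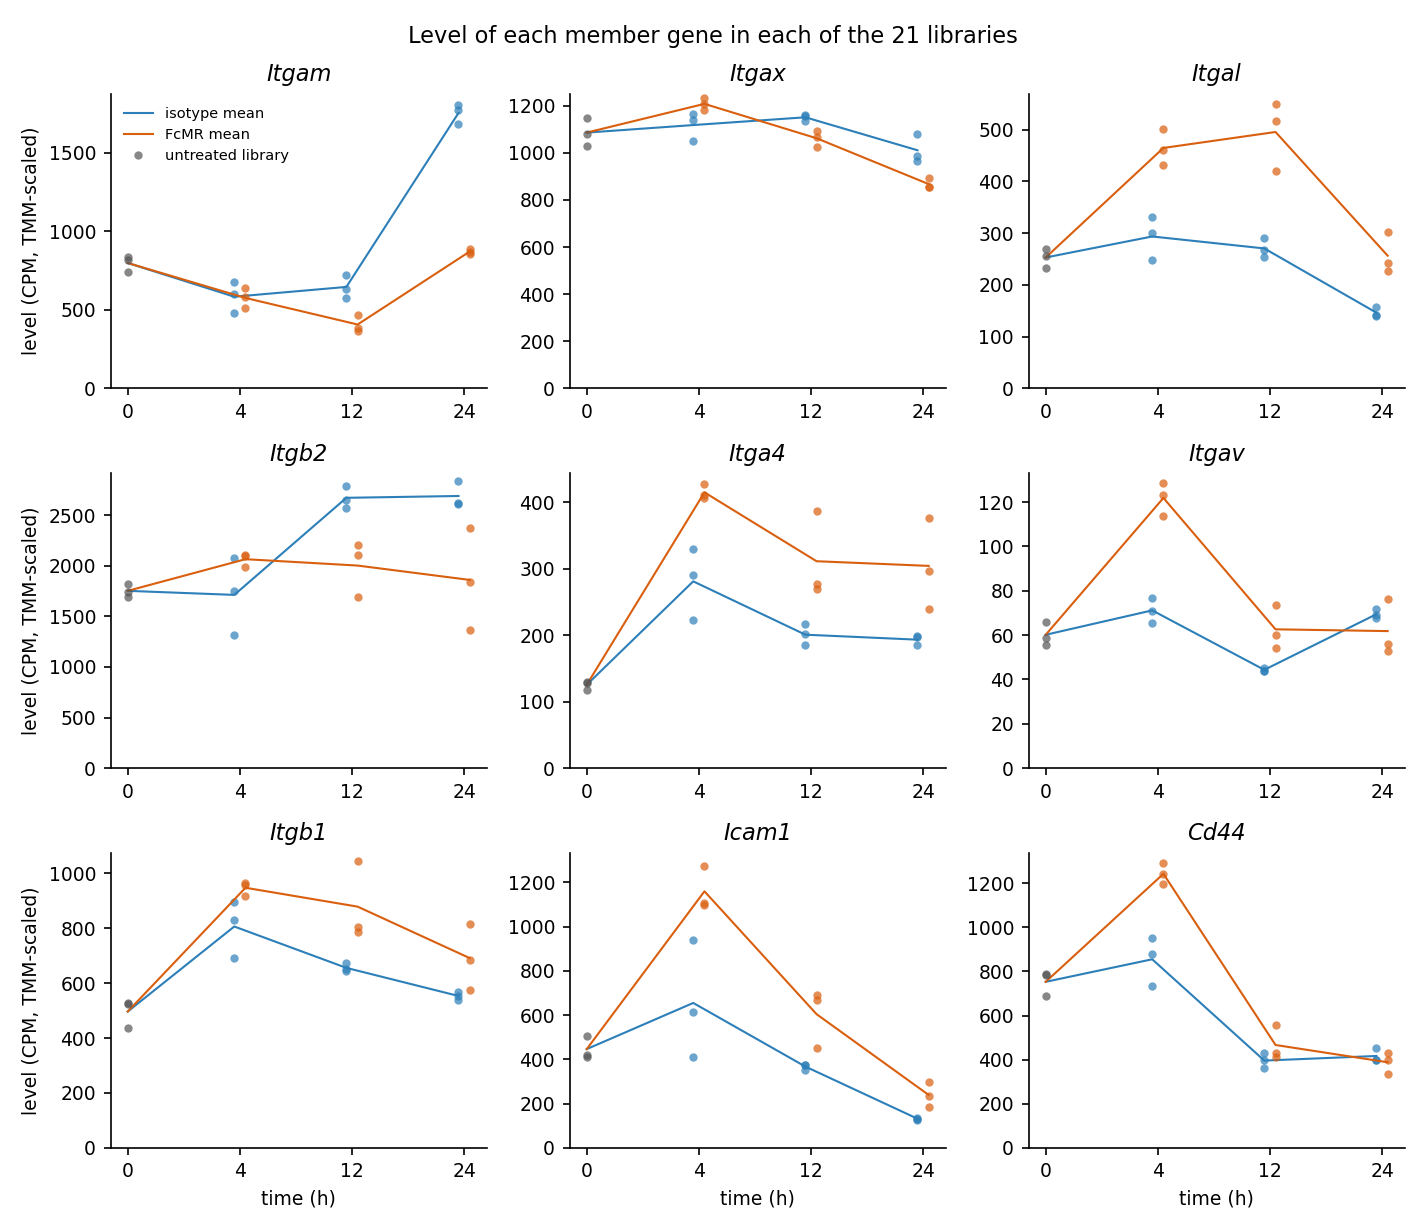
Level of each of the 9 members in CPM (linear axis from 0) at 0, 4, 12 and 24 h (spaced evenly), with 1 point per library and lines through the group means, grey for untreated, blue for isotype and orange for FcMR. The Itgam libraries separate at 24 h, with 1682 to 1804 CPM for isotype and 857 to 887 CPM for FcMR, while Itgal, Itga4 and Icam1 lie higher with FcMR at every time.

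Itgam, the alpha subunit of Mac-1 (chr7:128062640-128118491, plus strand, GRCm38), had the largest negative difference of the 9 at 12 and 24 h. In untreated cells it stood at 819.9, 835 and 738 CPM. At 4 h the isotype libraries held 599, 674 and 477 CPM and the FcMR libraries 637, 579.8 and 509, so the arms overlapped, and the log2 difference was -0.02 (SE 0.12, edgeR adjusted p = 0.948). At 12 h the isotype libraries held 724, 635 and 577 CPM and the FcMR libraries 467, 386 and 366, a log2 difference of -0.67 (SE 0.12, edgeR adjusted p = 0.000800). At 24 h the isotype libraries held 1804, 1682 and 1770.0 CPM, the highest of any group, and the FcMR libraries held 887, 857 and 868. That difference was -1.01 on the log2 scale (SE 0.12, edgeR adjusted p = 8.74e-06). Every isotype library at 24 h thus lay above every untreated library, and every FcMR library lay between the 2 groups. The calls at 12 and 24 h held in all 16 alternatives. Itgam overlaps the annotated gene Gm49368 on the same strand, and estimated counts can be split between them.

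Itgax, the CD11c subunit and close neighbour of Itgam (chr7:128129547-128150657, plus strand), was the steadiest member, with a highest group mean only 1.39 times the lowest. At 24 h its isotype libraries held 967, 985 and 1081 CPM and its FcMR libraries 853, 856 and 893. The arms did not overlap, and the log2 difference was -0.22 (SE 0.07, edgeR adjusted p = 0.0208). The differences at 4 h (0.11, SE 0.07, edgeR adjusted p = 0.273) and 12 h (-0.12, SE 0.07, edgeR adjusted p = 0.283) were not called. The call at 24 h held in 8 of 16 alternatives. It ended without any one of isotype 24 h replicates 1, 2 and 3 (edgeR adjusted p = 0.0527, 0.0665 and 0.187) or FcMR 24 h replicates 1 and 2 (0.115 and 0.0684). It also ended with the authors' factors (edgeR adjusted p = 0.056).

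Itgal, the alpha subunit of LFA-1 (chr7:127296260-127335138, plus strand), was higher with FcMR at all 3 times, with no overlap of the arms. At 4 h the isotype libraries held 301, 248 and 332 CPM and the FcMR libraries 432, 501 and 461 (log2 difference 0.66, SE 0.13, edgeR adjusted p = 0.00121). At 12 h the values were 267, 254 and 290.4 CPM against 419, 517 and 549 (0.87, SE 0.13, edgeR adjusted p = 7.66e-05). By 24 h both arms were lower, at 142, 140.4 and 156 CPM against 242, 226 and 301 (0.81, SE 0.13, edgeR adjusted p = 0.000131). At 24 h the FcMR libraries overlapped the untreated ones, which held 233 to 269.6 CPM, while all isotype libraries lay below those. All 3 calls held in all 16 alternatives.

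Itgb2, the shared beta subunit of these 3 receptors (chr10:77530252-77565708, plus strand), was the most abundant member per kilobase in every group. Untreated libraries held 1697 to 1825 CPM, and isotype libraries 2574 to 2793 at 12 h and 2611 to 2840.0 at 24 h. The FcMR libraries held 1695, 2112 and 2203 CPM at 12 h and 1843, 1366 and 2374 at 24 h, below every isotype library of the same time. Its log2 differences at 4, 12 and 24 h were 0.27, -0.42 and -0.53, each with an SE of 0.17 (edgeR adjusted p = 0.297, 0.104 and 0.0276). After correction for GC content the 12 h difference was called as well (-0.34, edgeR adjusted p = 0.00941). The call at 24 h held in 9 of 16 alternatives and ended without isotype 24 h replicate 1, 2 or 3 (edgeR adjusted p = 0.0612, 0.05999 and 0.0914) or FcMR 24 h replicate 1 or 2 (0.0776 and 0.128), the last leaving a difference of -0.35.

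**Figure D2:**
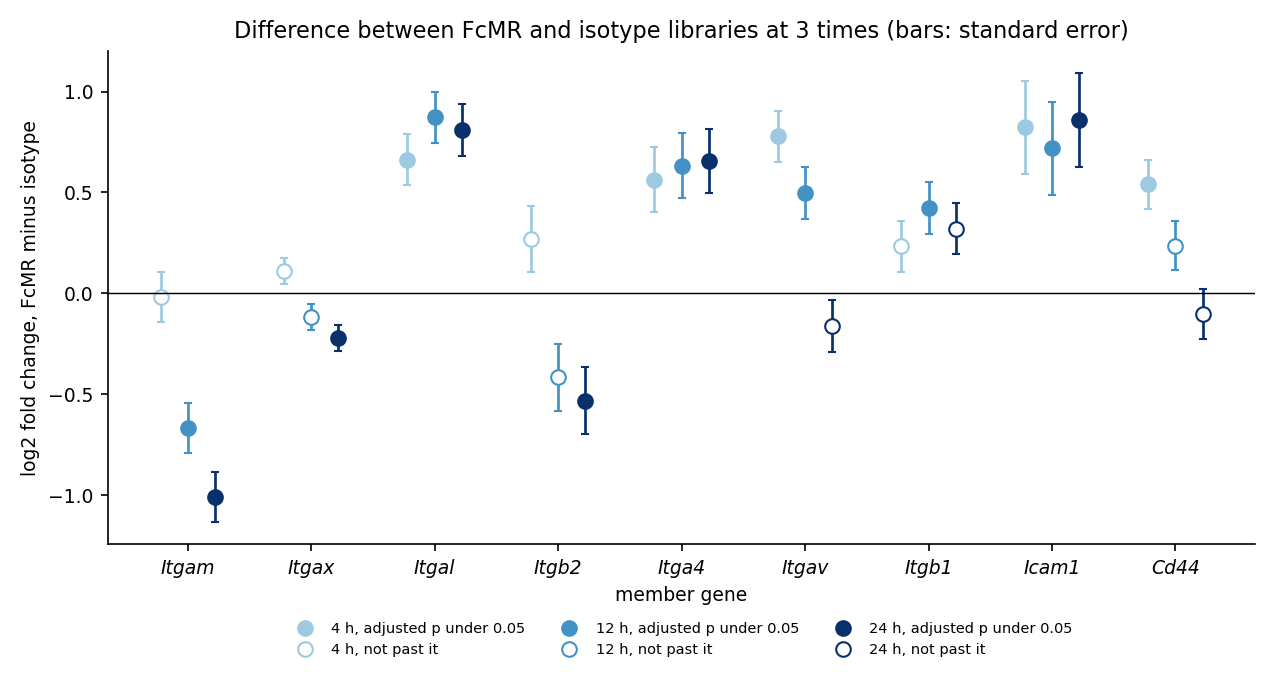
Log2 difference between FcMR and isotype libraries for each member at 4, 12 and 24 h (light to dark), with the standard error as bars and filled points where the edgeR adjusted p is under 0.05. Itgam runs from -0.02 to -1.01, Itgal, Itga4 and Icam1 stay between 0.56 and 0.87, and Itgav and Cd44 go from called above 0 at 4 h to uncalled values of -0.16 and -0.10 at 24 h.

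The makeup of the alpha partners of Itgb2 can be read from their levels per kilobase of transcript, as the share of each in the sum of Itgam, Itgax and Itgal. These shares do not depend on how libraries are scaled, and they were chosen after the levels had been seen. In untreated cells Itgam made up 35.0% ± 1.39 (SD, n = 3), Itgax 55.1% ± 2.03 and Itgal 9.94% ± 0.682. At 24 h the Itgam share was 59.1%, 57.1% and 56.0% in the isotype libraries and 42.4%, 41.8% and 40.0% in the FcMR libraries. The Itgal share ran the other way, at 4.17%, 4.27% and 4.43% in the isotype libraries and 10.4%, 9.88% and 12.4% with FcMR. At 12 h Itgal reached 21.3% ± 2.55 (SD, n = 3) of the sum with FcMR and 10.9% ± 0.909 with isotype. None of these arms overlapped, and each comparison gave a two-sided exact permutation p of 0.1, the smallest that 3 libraries against 3 allow. With the mean in place of the longest annotated transcript length, the Itgal difference fell from 10.4 to 6.70 percentage points at 12 h and from 6.61 to 4.24 at 24 h. The log2 ratio of Itgam to Itgal per kilobase was 1.41 for isotype and -0.13 for FcMR at 12 h, and 3.74 and 1.93 at 24 h.

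**Figure D3:**
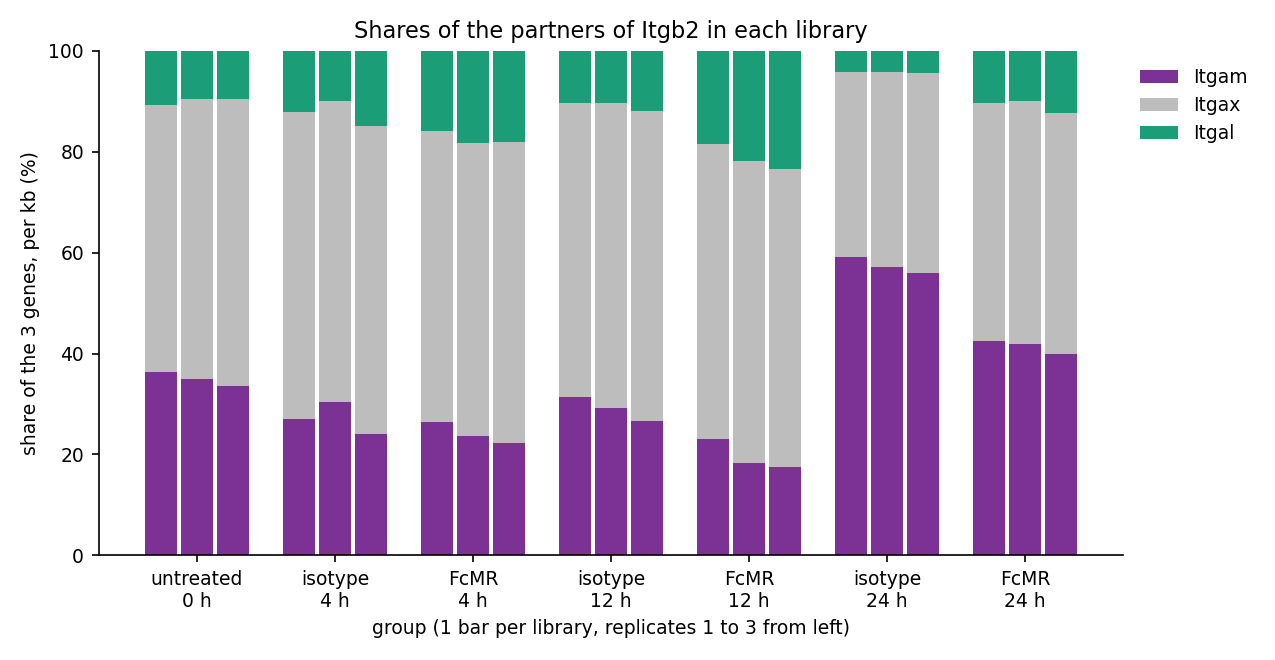
Share of Itgam (purple), Itgax (grey) and Itgal (green) in the sum of the 3 genes, each per kilobase of transcript, with 1 bar per library in the 7 groups. Itgam makes up 56.0% to 59.1% in the isotype libraries at 24 h and 40.0% to 42.4% in the FcMR libraries, and Itgal is largest in the FcMR libraries at 12 h.

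Itga4, the alpha subunit of VLA-4 (chr2:79255426-79333123, plus strand), was higher with FcMR at every time. The isotype libraries held 290.5, 329.7 and 223 CPM at 4 h and the FcMR libraries 428, 411 and 407 (log2 difference 0.56, SE 0.16, edgeR adjusted p = 0.0202). At 12 h the values were 217, 201 and 185 CPM against 388, 277 and 269.9 (0.63, SE 0.16, edgeR adjusted p = 0.00955). At 24 h they were 197, 198 and 185 CPM against 297, 377 and 240.0 (0.66, SE 0.16, edgeR adjusted p = 0.00614). The arms did not overlap at any of the 3 times. FcMR 12 h replicate 1 and FcMR 24 h replicate 2, the libraries with the lowest GC tilt of their groups, held the highest Itga4 of their groups, and the part of GC content in that was not tested. After GC correction all 3 calls stood (edgeR adjusted p = 3.95e-07, 1.17e-05 and 3.11e-06). The corrected differences were 0.66, 0.49 and 0.535, larger than without correction at 4 h and smaller at 12 and 24 h. The 4 h call held in 11 of 16 alternatives and ended with only the libraries compared (edgeR adjusted p = 0.0794). Without correction the 4 h call ended on leaving out isotype 4 h replicate 1 or 3 or FcMR 4 h replicate 1 or 2 (edgeR adjusted p = 0.0508, 0.0701, 0.0751 and 0.0667), the 12 h call without isotype 12 h replicate 3 or FcMR 12 h replicate 1 (0.0571 and 0.0845) and the 24 h call without FcMR 24 h replicate 2 (0.0586).

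Itgb1, the beta subunit that Itga4 needs for VLA-4 (chr8:128685654-128733200, plus strand), had the same direction with smaller differences. At 12 h the isotype libraries held 672, 649.9 and 645 CPM and the FcMR libraries 1044, 806 and 787, a log2 difference of 0.42 (SE 0.13, edgeR adjusted p = 0.0294). At 4 h the isotype libraries held 690.3 to 897 CPM and the FcMR libraries 919 to 965 (0.23, SE 0.13, edgeR adjusted p = 0.236). At 24 h they held 537 to 569 CPM and 576 to 814 (0.32, SE 0.13, edgeR adjusted p = 0.0882). The arms did not overlap at any time. After GC correction Itgb1 was called higher at 4 h (0.32, edgeR adjusted p = 0.000431), 12 h (0.27 in place of 0.42, 0.00184) and 24 h (0.205, 0.0121). The uncorrected 12 h call ended without FcMR 12 h replicate 1 (0.28, edgeR adjusted p = 0.213) and without isotype 12 h replicate 1, 2 or 3 (0.0833, 0.0997 and 0.0990). It also ended with only the libraries compared (edgeR adjusted p = 0.0749), and it held in 10 of 16 alternatives.

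Itgav, whose pairs bind vitronectin, fibronectin and osteopontin (chr2:83724397-83806916, plus strand), was higher with FcMR at 4 and 12 h. At 4 h the isotype libraries held 71.1, 76.8 and 65.6 CPM and the FcMR libraries 114, 129 and 123 (log2 difference 0.78, SE 0.13, edgeR adjusted p = 0.000342). At 12 h they held 45.3, 43.9 and 43.8 CPM against 73.7, 60.2 and 54.0 (0.50, SE 0.13, edgeR adjusted p = 0.0108). At 24 h the arms overlapped, with 71.6, 67.9 and 68.9 CPM against 52.7, 76.5 and 56.2 (-0.16, SE 0.13, edgeR adjusted p = 0.437). The 4 h call held in all 16 alternatives. The 12 h call ended without FcMR 12 h replicate 1 (0.36, edgeR adjusted p = 0.0858).

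Icam1, the ligand that LFA-1 and Mac-1 bind on other cells (chr9:21015985-21028817, plus strand), had the widest range of the 9, with its highest group mean 8.81 times the lowest. At 4 h the FcMR libraries held 1097, 1275 and 1104 CPM, above the isotype libraries at 614.5, 409.5 and 939.7 (log2 difference 0.82, SE 0.23, edgeR adjusted p = 0.0183). At 12 h the values were 450.4, 692 and 669.8 CPM against 350.3, 375 and 376 (0.72, SE 0.23, edgeR adjusted p = 0.0402). By 24 h they were 235, 183 and 299.7 CPM against 131, 128 and 136 (0.86, SE 0.23, edgeR adjusted p = 0.0121). The fitted fold was 1.77, 1.65 and 1.81 at the 3 times, while the levels at 24 h were the lowest of both arms. The 24 h call held in all 16 alternatives. The 4 h call held in 12 of 16 alternatives. It ended without isotype 4 h replicate 1 or 2 or FcMR 4 h replicate 2 (edgeR adjusted p = 0.0536, 0.0603 and 0.0640). It also ended with only the libraries compared (edgeR adjusted p = 0.128). Without both libraries out of title order the 4 h difference was 1.18. The 12 h call ended without any one of isotype 12 h replicates 1, 2 and 3 (0.118, 0.0885 and 0.0828) or FcMR 12 h replicates 2 and 3 (0.130 and 0.113).

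Cd44, the hyaluronan receptor (chr2:102811141-102901665, minus strand), differed between the arms at 4 h. The FcMR libraries then held 1199, 1241 and 1290.0 CPM and the isotype libraries 878, 953 and 735 (log2 difference 0.54, SE 0.12, edgeR adjusted p = 0.00481), a call that held in all 16 alternatives. At 12 h the arms overlapped, at 414 to 556 CPM with FcMR and 363 to 428 with isotype (0.24, SE 0.12, edgeR adjusted p = 0.237). At 24 h they overlapped again, at 337 to 431 CPM with FcMR and 399 to 451 with isotype (-0.10, SE 0.12, edgeR adjusted p = 0.642). After GC correction the 24 h difference was called (-0.19, edgeR adjusted p = 0.0417).

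Whether the effect of FcMR changed over the 3 times was tested jointly. The joint test called 2 of the 9 members, Itgam and Itgav, and 11% of all genes. Itgam moved from -0.02 at 4 h to -1.01 at 24 h (edgeR adjusted p = 0.00299), and Itgav from 0.78 to -0.16 (edgeR adjusted p = 0.00571). The edgeR adjusted p-values of Itgb2, Cd44 and Itgax were 0.0544, 0.0565 and 0.0567. Those of Itgal, Itga4, Itgb1 and Icam1 ran from 0.732 to 0.974, which does not show that their effects stayed equal. Both calls held in all 28 alternatives.

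The isotype arm shares its libraries with the comparisons above, so its own course is given beside them. Against untreated cells, calls among the members were 2 higher and 1 lower at 4 h, 3 higher and 2 lower at 12 h, then 3 of each direction at 24 h. Of all genes, 35.6% were called at 4 h (20.4% higher, 15.2% lower), 41.6% at 12 h (22% higher, 19.6% lower) and 42.2% at 24 h (21.3% higher, 20.9% lower). Itga4 was higher at all 3 times, with untreated libraries at 118 to 129.9 CPM and log2 differences of 1.16, 0.68 and 0.62 (edgeR adjusted p = 1.95e-05, 0.00244 and 0.00447). Itgb1 was higher at 4 h (0.70, edgeR adjusted p = 0.000334, and 0.365 after GC correction) and at 12 h (0.40, edgeR adjusted p = 0.0177), the latter call ending without untreated replicate 1 (0.0837). Itgb2 was higher at 12 and 24 h (0.61 and 0.62, edgeR adjusted p = 0.00653 and 0.00570). Itgam was first lower, by -0.45 at 4 h (edgeR adjusted p = 0.00795), and then higher, by 1.14 at 24 h (edgeR adjusted p = 8.68e-07).

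The members that ended below the untreated level in the isotype arm were Icam1, Itgal and Cd44. Icam1 was lower by -1.76 at 24 h (SE 0.24, edgeR adjusted p = 9.63e-06), from 505, 412 and 421 CPM in the untreated libraries to 128 to 136. Cd44 was lower by -0.93 at 12 h and by -0.85 at 24 h (edgeR adjusted p = 8.89e-06 and 2.25e-05), from 687 to 789 CPM in untreated cells. Itgal was lower by -0.79 at 24 h (edgeR adjusted p = 6.91e-05). Itgav was lower at 12 h only among the 3 times (-0.44, edgeR adjusted p = 0.0100), a call that ended without untreated replicate 2 (0.0561). Itgax was not called at any time.

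Per kilobase of transcript, the order of the members in untreated cells was Itgb2 (590 CPM per kb), Itgax (268), Icam1 (176 ± 20.3), Itgam (170.4 ± 11.1), Cd44 (134 ± 10.3), Itgb1 (130.2 ± 13.3), Itgal (48.4), Itga4 (12.85) and Itgav (8.53). Icam1 and Itgam differed by less than their SD over 3 libraries, as did Cd44 and Itgb1. In isotype cells at 24 h Itgam was second at 374 ± 13.4 CPM per kb, above Itgax at 249.9 ± 15.2. In FcMR cells at 24 h Itgax was second at 214 ± 5.53 and Itgam stood at 186 ± 3.22, beside Itgb1 at 181 ± 31.3. Icam1 then stood at 94.2 ± 23.2 in FcMR cells and 51.9 ± 1.68 in isotype cells.

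Across the 21 libraries, on log2 CPM, Itga4 and Itgb1 varied most alike among the members (Pearson r = 0.932), followed by Itgal and Icam1 (0.879). Itgam ran against Itgal (-0.907) and Icam1 (-0.823). These values describe libraries that share groups, depth and GC tilt. Among 11435 genes, the pattern of Itgam was most like Mmp8, a collagenase of myeloid granules (0.976), and that of Itgal most like Syk, a kinase of immune receptors (0.973). The next were Sirpb1c for Itgam (0.946) and Ebi3 for Itgal (0.964). Icam1 was most like Vasp, an actin regulator (0.982), and Stat5a (0.973). Itga4 was most like Cd47, an integrin-associated protein (0.984), and Cpd (0.983), and Itgb1 like Snx10 (0.980) and Sppl2a (0.978). Cd44 was most like Osgin2 (0.971) and Stx3 (0.971), Itgb2 like Lat (0.955) and Pkm (0.918), Itgav like Lin9 (0.922) and Usp47 (0.910), and Itgax like Pi4ka (0.896) and Sfxn2 (0.887).

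The other integrin subunits hold the partners of Itgav and Itga4. Of 19 listed, 12 were tested. FcMR libraries had 2 of them called higher and 3 lower at 4 h, 2 higher against 5 lower at 12 h, then 1 against 4 at 24 h, with medians of 0.01, -0.49 and -0.04 on the log2 scale. The calls made up 41.7%, 58.3% and 41.7% of the list, and 17.7%, 16.1% and 20.9% of all genes. Itgb8, which pairs only with Itgav, was higher with FcMR at each time, at 36.8 ± 4.84, 55.7 ± 3.95 and 48.3 ± 17.8 CPM (SD, n = 3) against 15.4 ± 2.35, 15.5 ± 2.08 and 12.4 ± 2.09 with isotype. Its log2 differences were 1.26, 1.85 and 1.97 (edgeR adjusted p = 0.000317, 3.18e-06 and 1.42e-06). In untreated cells it stood at 0.388 ± 0.0203 CPM. Itgb5 and Itgb3, which also pair with Itgav, were lower. Itgb5 differed by -0.78, -1.27 and -1.41 (edgeR adjusted p = 0.0302, 0.000745 and 0.000209), and Itgb3 by -0.47, -1.08 and -0.95 (0.00572, 1.95e-06 and 5.26e-06). The 4 h call of Itgb5 ended without isotype 4 h replicate 3 or FcMR 4 h replicate 1 or 3 (edgeR adjusted p = 0.157, 0.05997 and 0.132), the first leaving a difference of -0.47. It ended as well without both libraries out of title order (-0.47, edgeR adjusted p = 0.0819). With no filter or with only the libraries compared, the 4 h calls of Itgb5 (edgeR adjusted p = 0.107 and 0.1015) and Itgb3 (0.0963 and 0.0749) ended.

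Itga5, which pairs with Itgb1 as a fibronectin receptor, was higher at 4 h and 12 h (0.73 and 0.90, edgeR adjusted p = 0.00801 and 0.00146), and at 24 h the difference was 0.51 (0.0531). Itga6, a laminin receptor subunit, stood at 24 h at 15.3 ± 1.97 CPM in FcMR and 52.2 ± 4.97 in isotype libraries (-1.76, edgeR adjusted p = 3.89e-08). Its differences at 4 h and 12 h (both -0.49, edgeR adjusted p = 0.0198 and 0.0178) were called, the first not without isotype 4 h replicate 1 or 2 or FcMR 4 h replicate 2 or 3 (0.120, 0.0824, 0.104 and 0.119) and the second not without isotype 12 h replicate 1 or FcMR 12 h replicate 3 (0.127 and 0.0898). The 4 h call also ended with RLE factors (edgeR adjusted p = 0.0550) and with DESeq2 (DESeq2 adjusted p = 0.0612). The 12 h call ended with the authors' factors (edgeR adjusted p = 0.0551). Itgb7, the other beta partner of Itga4 and singled out here after its values were seen, was lower at 24 h (-1.17, edgeR adjusted p = 0.00983), a call that ended without isotype 24 h replicate 1 or FcMR 24 h replicate 2 (0.0511 and 0.0751).

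Of 24 listed ligands and counter-receptors of integrins, 17 were tested. With FcMR 5 were higher and none lower at 4 h, 5 higher and none lower at 12 h, and 7 higher and 4 lower at 24 h, with medians of 0.46, 0.18 and 0.41. That is 29.4%, 29.4% and 64.7% of the list, against the same shares of all genes as above. Vcam1, the cell-surface ligand of VLA-4, was at 101 ± 3.71, 46.5 ± 7.83 and 23.4 ± 3.65 CPM (SD, n = 3) with FcMR and 63.5 ± 8.06, 20.2 ± 3.34 and 7.90 ± 2.33 with isotype. Its log2 differences were 0.67, 1.21 and 1.57 (edgeR adjusted p = 0.0117, 8.58e-05 and 9.06e-06). F11r, a junctional ligand of LFA-1, was higher at all 3 times (0.68, 0.65 and 0.36, edgeR adjusted p = 9.46e-05, 0.000117 and 0.0141), the last call ending without isotype 24 h replicate 2 (0.0641). C3, whose cleavage product binds Mac-1, was higher at 4 h and 24 h (0.76 and 0.98, edgeR adjusted p = 1.17e-05 and 2.68e-07). Jam2, an adhesion protein of cell junctions, was higher at 24 h at low level (2.25 against 0.590 CPM, 1.85, edgeR adjusted p = 0.00453). Pecam1 differed by 1.20 at 12 h (edgeR adjusted p = 0.0262), which was not called without isotype 12 h replicate 2 or 3 or FcMR 12 h replicate 3 (0.101, 0.159 and 0.282), the last leaving 0.57. With the authors' factors Pecam1 was not called either (edgeR adjusted p = 0.155). Fn1, fibronectin, was higher at 4 h (0.55, edgeR adjusted p = 0.00796) and lower at 24 h, at 98.3 ± 21.2 CPM against 285 ± 13.3 (-1.54, edgeR adjusted p = 2.19e-07). Spp1, osteopontin, was lower at 24 h, at 1418 ± 138 CPM against 4214 ± 363 (-1.57, edgeR adjusted p = 5.20e-07).

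Among 29 listed ligands and partners of Cd44 and selectin-type genes, 20 were tested, of which 4 rose and 2 fell at 4 h, 3 rose and 1 fell at 12 h, and 5 rose and 1 fell at 24 h (medians 0.09, -0.01 and 0.05). These calls are 30%, 20% and 30% of the list, beside 17.7%, 16.1% and 20.9% of all genes, whose medians were -0.07, -0.02 and 0.01. Vcan, a proteoglycan that binds hyaluronan, was higher at all 3 times (1.13, 1.14 and 0.57, edgeR adjusted p = 5.00e-06, 2.83e-06 and 0.00270). Cemip2, which cuts hyaluronan at the cell surface, was higher at 4 h and 12 h (1.09 and 0.82, edgeR adjusted p = 1.46e-07 and 2.34e-06). Hyal1, a lysosomal hyaluronidase, was scarce and lower at both later times (-1.13 at 12 h, -1.65 at 24 h, edgeR adjusted p = 8.55e-05 and 8.28e-07). At 4 h it differed by -0.77 (0.0225), a call that ended without isotype 4 h replicate 1 or 2 or FcMR 4 h replicate 1, 2 or 3 (0.0880, 0.0841, 0.0513, 0.0598 and 0.0742). The 4 h call of Hyal1 ended as well with the authors' factors (edgeR adjusted p = 0.0998) and with DESeq2 (DESeq2 adjusted p = 0.101). Adam10, a sheddase of Cd44, differed by -0.39 at 4 h (edgeR adjusted p = 0.0481) and Mmp9 by 0.90 at 24 h (0.0447). The Adam10 call ended without any library of the pair of arms other than isotype 4 h replicate 3 (0.111 to 0.344, the difference being -0.21 without isotype 4 h replicate 2) and with RLE factors, the authors' factors or DESeq2 (0.126, 0.140 and 0.116), and the Mmp9 call without isotype 24 h replicate 1, 2 or 3 or FcMR 24 h replicate 3 (0.112, 0.116, 0.0759 and 0.222), the last leaving 0.48.

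**Figure D4:**
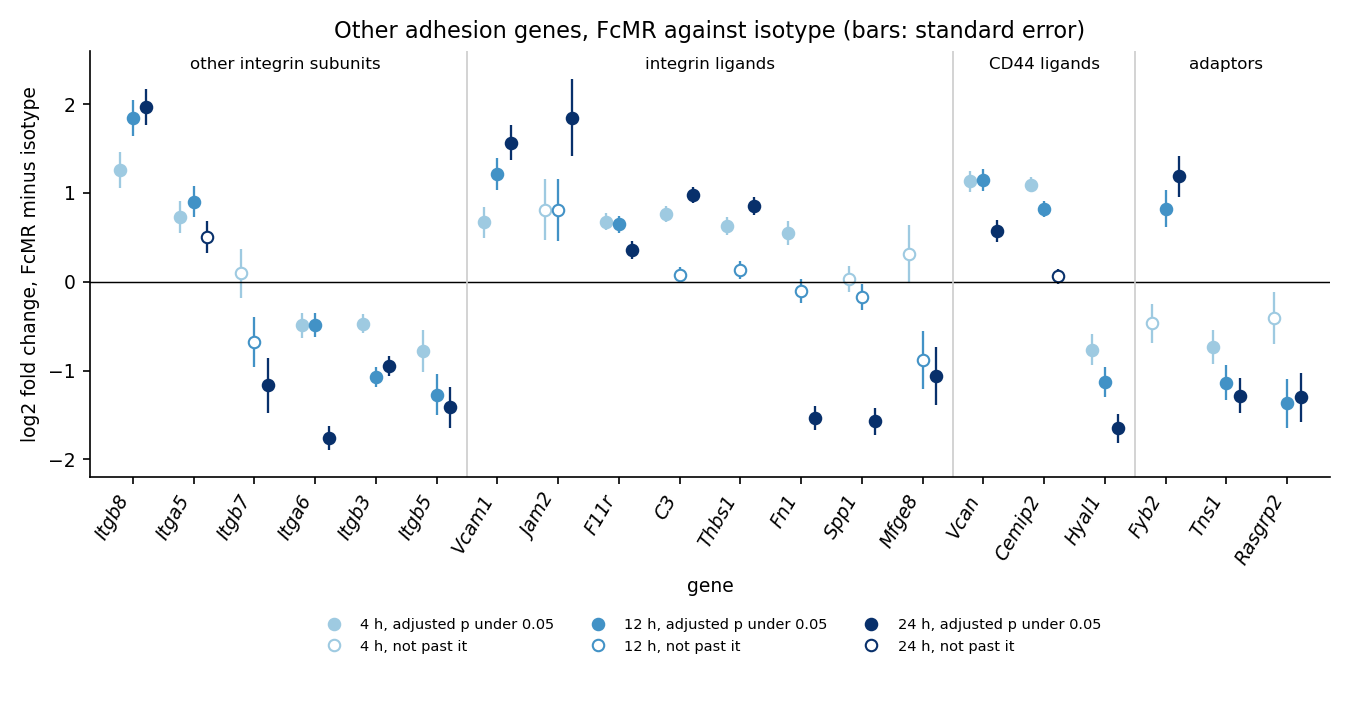
Log2 difference between FcMR and isotype for 20 other adhesion genes at 4, 12 and 24 h (light to dark), with standard errors as bars and filled points where the edgeR adjusted p is under 0.05, grouped by list. Itgb8 and Vcam1 lie above 0 at each time, reaching 1.97 and 1.57 at 24 h, while Itgb5 and Itgb3 lie below 0, and Fn1 goes from 0.55 at 4 h to -1.54 at 24 h.

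All 8 macrophage markers were detected in every library, and most of their summed level was Lyz2. Without TMM factors, the sum at 4 h was 23670 to 24460 CPM with FcMR and 25610 to 30540 with isotype. The TMM factors at 4 h were 0.8462, 0.8324 and 0.8521 for FcMR and 1.0038, 1.0037 and 0.9423 for isotype libraries. Dividing by these would raise the FcMR sums relative to the isotype ones. The 4 h sums therefore cannot show a difference between the arms on the TMM scale, which was not tested. At 24 h the sum was lower with FcMR (25940 to 28310 CPM against 31710 to 35920), with no overlap. At 12 h it was 19440 to 23120 CPM with FcMR against 22900 to 25310. The 10 neutrophil markers, cells that also carry Itgam, summed to 1584 to 1786 CPM in untreated libraries, 196 to 236 in isotype and 212 to 240.0 in FcMR libraries at 24 h. The 6 T-cell markers, cells rich in Itgal, summed to at most 4.90 CPM, with Cd3e at 0 in 12 libraries, and 6 B-cell markers to at most 16.7 CPM. The 8 dendritic-cell markers, cells rich in Itgax, summed to 769.7 to 807 CPM in FcMR and 480.5 to 559 in isotype libraries at 24 h, of which Ccr7 made up 697 and 420.2 CPM on average. The 6 fibroblast and stromal markers summed to at most 16.3 CPM, highest with FcMR at 12 h and mostly Pdgfrb, with Col3a1 at 0 in 16 libraries. The 6 mast-cell and basophil markers summed to at most 60.9 CPM and the 4 endothelial markers in the table to at most 102 CPM, mostly Kdr. The part of the cell types that these markers stand for in the differences above was not tested.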

How the data were processed

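Per the submitters' processing notes, CASAVA 1.8.2, kallisto 0.44.0 and DESeq2 were used with builds mm10 and GRCm38. The annotation is not given in the sources used here. The authors deposited estimated counts per gene as whole numbers and a second table of normalized signal, which equals the counts divided by factors that differ between genes as well as libraries. Groups and replicate numbers come from the sample titles. RNA (100 ng per library) was read as 75 bp single-end reads, per the labels' protocols.

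Identifiers were matched without version to GENCODE M21 (GRCm38), with a symbol for 23187 of 23250 genes. Whether counting used strand is not stated, and Itga4, Itgav, Icam1 and Cd44 overlap annotated genes on the other strand. No replicate pair of the 21 agreed within counting error (the lowest ratio of chi-square to its degrees of freedom was 2.98). Each library was kept as 1 unit in the fit, and this spread does not show that the libraries are independent samples.

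The 21 libraries were fitted together with 1 coefficient per group in edgeR 4.0.16 (R 4.3.3), with TMM factors, filterByExpr (minimum 10 counts) and quasi-likelihood tests. Adjusted p-values are Benjamini-Hochberg over 13468 genes. The script was tested on simulated data. Intervals of counting were not needed at these depths, and floors cover counting error only. Alternatives were RLE factors, the authors' deposited factors, no filter, DESeq2 1.42.0, a minimum mean of 10 counts, only the libraries compared, the replicate block, a GC correction (spline, 5 df), both of these together, and leaving out libraries. The alternatives for the partner shares and for genes outside the 9 were chosen after seeing the data.

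The members, lists and tests were chosen with earlier results of these data known. Besides the members, the text names by rule, from each adhesion list with average log2 CPM of at least 1, at each time up to 2 called genes from either end of the ranked differences, and for each member the 2 genes most correlated with it. Levels per kilobase use the longest annotated transcript.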

Additional observations from a re-analysis of the deposited data

Results flagged for a closer look

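For 2 of the 9 members the effect of FcMR against isotype differed between 4, 12 and 24 h by the joint edgeR test. Itgam was flagged at an adjusted p of 0.002993, with differences of -0.02, -0.67 and -1.01 on the log2 scale. Itgav was flagged at an adjusted p of 0.005707, with differences of 0.78, 0.50 and -0.16. Over the 28 alternatives, the change from 4 h to 24 h ran from -1.13 to -0.85 for Itgam and from -1.44 to -0.85 for Itgav.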

How the results depend on the processing

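No called value of the 9 members turned its direction in any alternative, while some uncalled values near 0 did. Of 1116 member values, 1016 kept their side of the threshold, 43 called ones fell short of it and 57 uncalled ones passed it. Without the expression filter, the median of all genes moved by 0.12 for FcMR against isotype at 4 h and by -0.12 for isotype against untreated at 4 h, and by at most 0.1 in the other comparisons and settings. The count of members called for FcMR against isotype was 3 in place of 5 at 4 h with only the libraries compared, and on leaving out 1 library it ran from 3 to 5 at 4 h, from 3 to 5 at 12 h and from 3 to 7 at 24 h. It was 3 without isotype 4 h replicate 1 or FcMR 4 h replicate 2, without isotype 12 h replicate 3 or FcMR 12 h replicate 1, and without FcMR 24 h replicate 2. The shares of all genes called in these fits on fewer libraries are not given here, so the counts cannot be set beside them. For isotype against untreated at 4 h, 5 members in place of 3 were called with GC correction, alone or with the replicate block. Of all genes, 42.3% were called in that comparison with GC correction alone, in place of 35.6%. The joint test over time called 2 members. It called 4 with RLE factors, with the authors' factors, with the replicate block and without both libraries out of title order, 5 with DESeq2, and 6 with GC correction, alone or with the replicate block. Leaving out 1 library gave 2 to 4, with 4 without FcMR 12 h replicate 1. Of all genes, the joint test called 11% in the main fit, 12% with the replicate block and 19.2% with GC correction alone. The shares of all genes in its other settings are not given here. With GC correction, 8 integrin ligands were called at 4 h and 8 at 12 h (5 and 5 without it), 14 adaptors at 12 h (7 without it) and 10 genes of the Cd44 list at 4 h (6 without it), while the share of all genes called went from 17.7% to 25.9% at 4 h and from 16.1% to 23.3% at 12 h. With the replicate block 8 genes of the Cd44 list were called at 12 h (4 without it), beside 17% of all genes. Causes were not tested. Same-numbered libraries deviated together little (mean r from -0.071 to 0.106, single values from -0.166 to 0.338). Such values cannot tell whether the numbers pair the samples, and no label says that they do. Replicate 3 was the lowest library in 5 of 7 groups for Itgam, 6 for Itga4 and 5 for Itgb1. The numbers for Cd44, Itgav, Itgax, Itgb2, Itgal and Icam1 were 4, 3, 2, 2, 1 and 0. Replicate number took 53.0% of the within-group variance of Itgam (18.2% for the median gene). For the other members it took from 9.26% (Itgax) to 35.8% (Itga4). With 3 libraries a group, a missed call does not show equal levels.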

Other observations

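Of 34 listed activators and adaptors inside the cell, 29 were tested, with 4 higher and 2 lower in FcMR than in isotype libraries at 4 h, 3 higher and 4 lower at 12 h, and 1 higher and 9 lower at 24 h (medians 0.18, -0.12 and -0.20 on the log2 scale). These calls are 20.7%, 24.1% and 34.5% of the list, beside 17.7%, 16.1% and 20.9% of all genes. Vcl, vinculin, was higher at 4 h (0.64, edgeR adjusted p = 0.000107) and lower at 24 h (-0.57, edgeR adjusted p = 0.000223). Actn1, an actin crosslinker of adhesion sites, was higher at 4 h, at 790.5 ± 49.1 CPM against 457 ± 102 (0.79, edgeR adjusted p = 0.000223). Tns1, a tensin that holds actin to integrin tails, was lower at both later times (-1.14 and -1.28 at 12 and 24 h, edgeR adjusted p = 0.000383 and 0.000138). At 4 h it differed by -0.73 (0.0129), a call that ended without isotype 4 h replicate 3 or FcMR 4 h replicate 3 (0.0714 and 0.0653) and with the authors' factors (0.115). Rasgrp2, an activator of Rap1 upstream of integrins, was lower at low level at 12 h and 24 h (-1.37 and -1.30, edgeR adjusted p = 0.00174 and 0.00180). Fyb, an adaptor of immune receptors, was higher at 12 h (0.43, edgeR adjusted p = 0.000771), and Fyb2 at 12 h and 24 h (0.82 and 1.19, edgeR adjusted p = 0.0106 and 0.000878), the former call ending without isotype 12 h replicate 1 (0.0607). Itgb1bp1, a protein bound to the tail of Itgb1, differed by -0.36 at 4 h (edgeR adjusted p = 0.0372). That call ended without isotype 4 h replicate 1 or 2 or any FcMR 4 h library (0.0859 to 0.228). It also ended with RLE factors or the authors' factors (edgeR adjusted p = 0.105 and 0.361) and with DESeq2 (DESeq2 adjusted p = 0.119).

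The 8 macrophage markers did not all run one way at 24 h, and their differences were not tested. Mean levels, again without TMM factors, were lower in FcMR than in isotype libraries for Lyz2 (22510 against 29950 CPM), Cd68 (697 against 869), Mertk (78.1 against 124), Fcgr1 (82.5 against 189) and C5ar1 (42.5 against 106). They were higher for Adgre1, which encodes F4/80 (1563 against 889 CPM), and Cd14 (856 against 192), and Csf1r stood at 1012 against 990.0.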
